A study of Arabidopsis thaliana with 8 samples.

Results

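The cytokinin oxidase/dehydrogenase (CKX) genes were followed by name, and all 7 members, CKX1 to CKX7, were found among the 28775 genes of the table. The series sequenced poly-A messenger RNA of mixed-stage floral buds of Arabidopsis thaliana, strain L er with the 35S:GR-RBE transgene. In these plants the constitutive 35S promoter expresses a fusion of the glucocorticoid receptor (GR) with RABBIT EARS (RBE), a transcription factor of petal development, and the fusion moves into the nucleus once dexamethasone is bound. Dexamethasone-treated buds (DEX) received 10 µM dexamethasone in 0.1% ethanol and 0.015% Silwet for 4 h, and mock buds received ethanol and Silwet alone for 4 h. There were 4 DEX and 4 mock libraries, made from 2 biological replicates per treatment that were each sequenced as 2 technical replicates. Plants in both groups carried the transgene, so a response to dexamethasone itself and a response to RBE in the nucleus cannot be told apart here.

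CKX enzymes use a flavin cofactor to cut the side chain off isopentenyladenine- and zeatin-type cytokinins, which destroys these hormones irreversibly. Cytokinins promote cell division in shoot and flower meristems, and CKX activity limits their level. Members differ in where the enzyme acts: CKX2 is secreted, CKX1 and CKX3 enter the secretory pathway and have been assigned to the vacuole or endoplasmic reticulum, and CKX7 is cytosolic. Plants that lack both CKX3 and CKX5 form larger inflorescence and floral meristems.

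The 7 genes lie at separate places on 5 chromosomes, and their coding sequences resemble each other only in part. Coordinates are those of TAIR10.1. CKX1 (AT2G41510) lies on chromosome 2 from 17314412 to 17317354 and CKX2 (AT2G19500) on chromosome 2 from 8444204 to 8447355. CKX3 (AT5G56970) lies on chromosome 5 from 23044839 to 23048292 and CKX7 (AT5G21482) on chromosome 5 from 7226606 to 7230304. CKX4 (AT4G29740) lies on chromosome 4 from 14566183 to 14569380, CKX5 (AT1G75450) on chromosome 1 from 28314458 to 28318375 and CKX6 (AT3G63440) on chromosome 3 from 23424157 to 23426536. CKX2, CKX3 and CKX5 are on the minus strand and the others on the plus strand. CKX7 has 4 coding exons and each of the others has 5, and the longest annotated reading frames encode between 501 residues for CKX2 and 637 for CKX1. In the authors' deposited table the terms cytokinin dehydrogenase activity and cytokinin catabolic process were attached to 7 genes each, and these were the 7 members.

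The stretch of 45 coding bases with the most positions shared by the whole family is printed below, to show how far the members match where they are most alike. Capitals mark the 26 positions at which all 7 genes have the same base, and each line reads 5′ to 3′ on the coding strand of the Columbia reference, whereas the sequenced plants were L er. In CKX3 the stretch is chr5:23046086-23046130 on the minus strand, and in CKX4 it is chr4:14567408-14567452 on the plus strand.
CKX1: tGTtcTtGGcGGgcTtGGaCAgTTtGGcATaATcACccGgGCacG
CKX2: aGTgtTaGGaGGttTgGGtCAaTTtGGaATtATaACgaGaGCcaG
CKX3: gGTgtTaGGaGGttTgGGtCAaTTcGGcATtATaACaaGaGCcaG
CKX4: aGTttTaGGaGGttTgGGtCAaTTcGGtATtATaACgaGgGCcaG
CKX5: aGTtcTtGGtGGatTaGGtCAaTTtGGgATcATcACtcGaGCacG
CKX6: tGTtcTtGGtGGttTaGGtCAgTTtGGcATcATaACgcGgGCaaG
CKX7: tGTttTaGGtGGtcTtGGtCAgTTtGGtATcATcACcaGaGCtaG

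Even in that stretch no pair of genes was identical, and over the 1404 gap-free positions of the coding alignment 25.6% were shared by all 7. Among the 21 pairs, coding identity ranged from 49.5% for CKX2 and CKX7 to 75.1% for CKX2 and CKX4, with a median of 52.9%. The longest run of identical transcript bases in any pair was 26 bases, between CKX2 and CKX3. No member had another place in the genome at 95% identity or more over 100 bases.

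Read numbers per pool were recovered from the deposited log-likelihood score, as described under processing, and cover all 4 libraries of a treatment together. Summed over genes, about 102141186 reads were recovered for DEX and 119057468 for mock, and 24945 genes had reads in both pools. Floral identity was present in both pools: the summed level of AP1, AP3, PI, AG and SEP3 was 431 in DEX and 487 in mock on the RPKM scale, which divides reads by exon length and by the reads of the pool. RBE itself had 21774 reads in DEX and 28895 in mock, transgene and native gene together. Relative to the size of the pools, its log2 ratio of DEX over mock was -0.19 ± 0.01. Errors written as ± are standard errors from read counting only, no value per library was used, and so no difference below has a replicate check. Genes with reads in both pools count as called when the authors' deposited table gave the opposite direction a posterior probability under 0.05.

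The family's members went in opposite directions: 3 of 7 were called lower in DEX, 1 was called higher and 3 were not called. The lower members were CKX3, CKX1 and CKX5, and the higher member was CKX4. Over all 24945 genes with reads in both pools, 20.8% were called lower and 36.4% higher. With the median ratio of well-covered genes set to 0, these shares became 27.5% and 27.5%, and the members' calls did not change. At 1.5-fold or more, 2 of the 7 members were called lower and 1 higher, against 2.91% and 4.45% of all genes. Since calls were so common in the table, each ratio is also set against those of genes of similar depth. The median log2 ratio was -0.21 over the 7 members and 0.05 over all genes with reads in both pools.

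CKX3 had the log2 ratio furthest from 0 in the family. It had 788 reads in DEX and 2419 in mock, or 4.24 RPKM in DEX and 11.2 RPKM in mock. The log2 ratio was -1.40 ± 0.06, a level 2.63-fold lower in DEX, and the posterior that DEX was higher was 0 in the authors' deposited table. Of the 6824 other genes within a factor of 2 of its reads, 5 had a ratio as low or lower, or 0.0733%. The log2 ratios of those genes had a standard deviation of 0.25, several times the counting error of CKX3. In bulk buds, fewer cells that express a gene and less RNA per cell cannot be told apart.

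CKX5, the partner of CKX3 in the double mutant, was also lower but by less. It had 1483 reads in DEX and 2520 in mock, or 5.32 RPKM in DEX and 7.76 RPKM in mock. The log2 ratio was -0.54 ± 0.05, or 1.46-fold lower in DEX, and 2.02% of the 7435 other genes of similar depth had a ratio as low or lower. CKX5 overlaps AT1G09553 on its own strand and AT1G09557 and AT1G75440 on the other, and AT1G75440 had a log2 ratio of -0.19 ± 0.10. Where counting did not use strand, reads of bases shared with the other strand are uncertain. The strand setting is not given in the sources used here. Strand cannot separate CKX5 from AT1G09553 in any case, and neither AT1G09553 nor AT1G09557 is a row of the table.

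CKX1, which carries the term meristem development in the authors' deposited table, was expressed at a low level and was lower in DEX. It had 129 reads in DEX and 266 in mock, or 0.50 RPKM in DEX and 0.89 RPKM in mock. The log2 ratio was -0.82 ± 0.15, or 1.77-fold lower in DEX, and 74 of 2734 other genes of similar depth, 2.71%, had a ratio as low or lower. At this depth the 95% counting interval ran from -1.12 to -0.52, so the ratio of CKX1 could not be told apart from that of CKX5. The annotation places AT2G41505 and AT2G41515 on the other strand across parts of CKX1, and neither is a row of the table.

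CKX4 was the member called higher. It had 202 reads in DEX and 104 in mock, or 0.85 RPKM in DEX and 0.38 RPKM in mock. The log2 ratio was 1.19 ± 0.17, or 2.28-fold higher in DEX, with a 95% counting interval from 0.84 to 1.53. Of 2481 other genes of similar depth, 41 had a ratio as high or higher, or 1.65%. In RPKM the gain of CKX4, 0.48, was small beside the loss of CKX3. No annotated gene overlaps CKX4, and its neighbours AT4G29735 and AT4G29750, at log2 ratios of -0.03 ± 0.03 and -0.05 ± 0.03, were not called.

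CKX7, CKX2 and CKX6 were not called. CKX7, the cytosolic enzyme and the most abundant member, had 3051 reads in DEX and 3569 in mock, at a log2 ratio of -0.0054 ± 0.04. CKX2 had 1402 reads in DEX and 1594 in mock, at a log2 ratio of 0.04 ± 0.05, or -0.0080 after the median ratio was set to 0. The 95% counting intervals, -0.08 to 0.06 for CKX7 and -0.07 to 0.14 for CKX2, leave room only for small differences between the pools. CKX6, which carries the term stomatal complex morphogenesis in the authors' deposited table, had 46 reads in DEX and 62 in mock. Its log2 ratio of -0.21 ± 0.28 had an interval from -0.76 to 0.35. That interval includes the ratio of CKX5, so the ratios of CKX6 and CKX5 could not be told apart at this depth. CKX2 overlaps AT2G19490 and AT2G00640, and CKX6 overlaps AT3G63445, all on the other strand. In the authors' deposited table DEX was higher with a posterior of 0.418 for CKX7, 0.753 for CKX2 and 0.247 for CKX6.

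**Figure D1:**
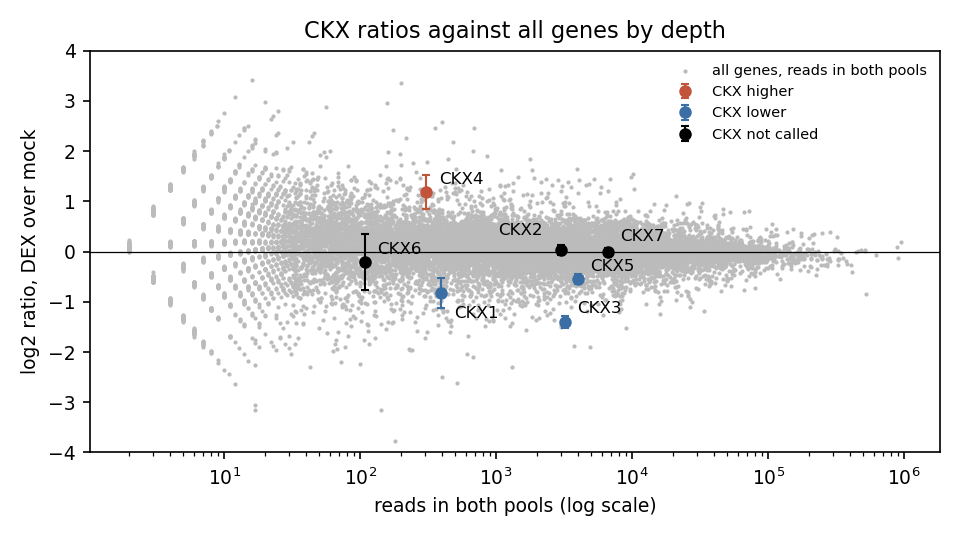
Log2 ratio of DEX over mock (vertical axis) against the reads of both pools together (horizontal axis, log scale) for all 24945 genes with reads in both pools, in grey, and for the 7 CKX genes with 95% counting intervals. CKX3 at -1.40 lies at the lower edge of the cloud at its depth and CKX4 at 1.19 near the upper edge, while CKX2 and CKX7 lie at its centre.

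On the scale of RPKM, which allows levels of different genes to be compared, the order of the members differed between the pools. In DEX the order was CKX7 at 14.5 RPKM, CKX2 at 8.23, CKX5 at 5.32, CKX3 at 4.24, CKX4 at 0.85, CKX1 at 0.50 and CKX6 at 0.22 RPKM. In mock it was CKX7 at 14.5 RPKM, CKX3 at 11.2, CKX2 at 8.03, CKX5 at 7.76, CKX1 at 0.89, CKX4 at 0.38 and CKX6 at 0.26 RPKM. Thus CKX3 stood below CKX2 and CKX5 in DEX but above both in mock, and CKX4 stood above CKX1 in DEX and below it in mock. The neighbours in the mock order that did not differ beyond counting error were CKX2 and CKX5, whose levels were 0.27 RPKM apart with a 95% interval from -0.22 to 0.77. Every other pair of neighbours, in either pool, differed by more than its counting interval. CKX7 stood at percentile 63.9 of all genes with reads in both pools in DEX and at percentile 64.9 in mock, and CKX6 at percentile 11.9 in DEX and 13.3 in mock.

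**Figure D2:**
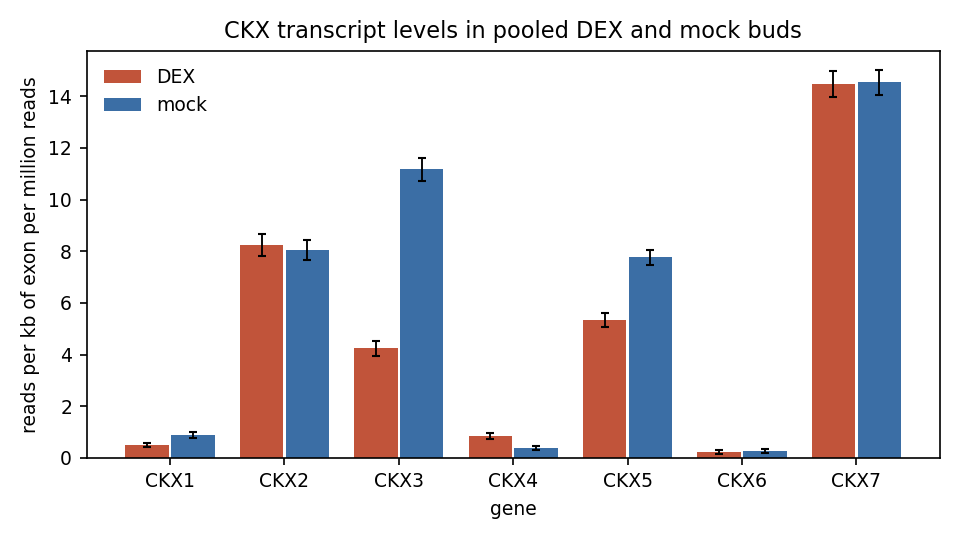
Transcript level of each CKX gene in RPKM, with the DEX pool in red left of the mock pool in blue; bars start at 0 and error bars are 95% counting intervals. CKX3 stands at 4.24 RPKM in DEX and 11.2 RPKM in mock, whereas CKX7 stands at 14.5 RPKM in both.

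Summed over the family, CKX transcripts were lower in DEX. The 7 genes had 7101 reads in DEX and 10534 in mock, at a log2 ratio of -0.35 ± 0.02. Their summed level was 33.9 RPKM in DEX and 43.0 RPKM in mock. The 3 members called lower summed to 10.1 RPKM in DEX and 19.8 RPKM in mock, and the 3 members not called to 22.9 RPKM in DEX and 22.8 RPKM in mock. Since the calls define these groups, their sums are a description and add no support to the calls. CKX3 made up 12.5% of the family's RPKM in DEX and 26.0% in mock. The share of CKX7 was 42.8% in DEX and 33.8% in mock, that of CKX2 24.3% in DEX and 18.7% in mock, and that of CKX5 15.7% in DEX and 18.0% in mock.

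Coding identity and the ratios of the members are set side by side here as a description, with no test of a relation. CKX2 and CKX4, the most alike pair at 75.1% coding identity, had log2 ratios 1.15 ± 0.18 apart, with CKX4 the higher. CKX3 and CKX4, at 59.8% identity, had the widest gap of the 21 pairs, 2.58 ± 0.18. CKX1 and CKX6, at 63.3% identity, were 0.62 ± 0.32 apart, which is within the 95% counting interval. In 15 of the 21 pairs the ratios differed by more than that interval. The pairs share members and are not independent.

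**Figure D3:**
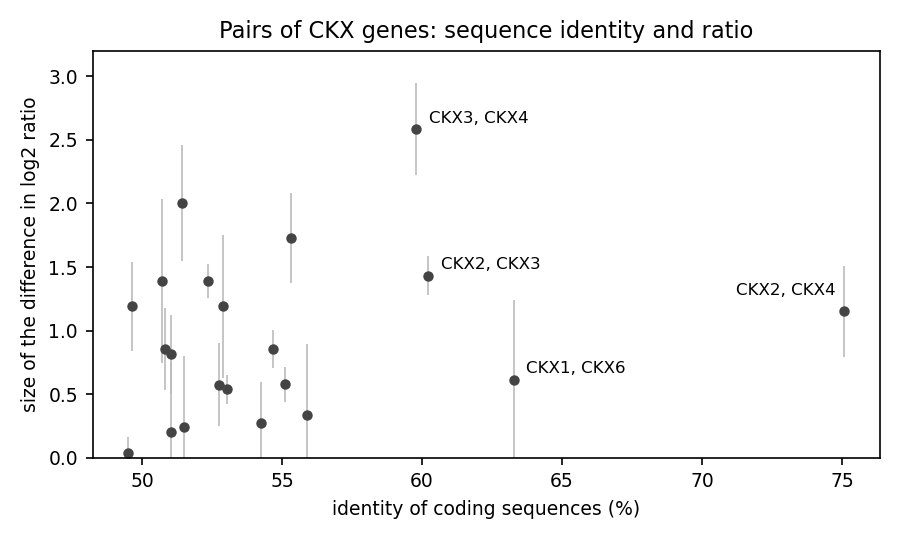
Size of the difference in log2 ratio (vertical axis, 95% counting interval) against the identity of the coding sequences in percent (horizontal axis) for the 21 pairs of CKX genes. The most alike pair, CKX2 and CKX4 at 75.1%, lies at 1.15, and the widest gap is that of CKX3 and CKX4 at 2.58.

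The 250 bases before the annotated start of CKX3 and of CKX4 are given below because these members had the largest ratios in each direction. They read 5′ to 3′ on the strand of the gene, from the TAIR10.1 reference of the Columbia strain. The CKX3 window is chr5:23048293-23048542 on the minus strand and the CKX4 window is chr4:14565933-14566182 on the plus strand. Capitals mark matches to AGATT on either strand, a core that type-B response regulators of the cytokinin pathway can bind.
CKX3: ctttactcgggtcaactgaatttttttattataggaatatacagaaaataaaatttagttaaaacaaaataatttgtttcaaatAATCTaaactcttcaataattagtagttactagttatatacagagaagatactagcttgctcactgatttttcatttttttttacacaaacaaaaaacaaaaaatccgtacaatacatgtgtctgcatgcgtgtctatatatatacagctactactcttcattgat
CKX4: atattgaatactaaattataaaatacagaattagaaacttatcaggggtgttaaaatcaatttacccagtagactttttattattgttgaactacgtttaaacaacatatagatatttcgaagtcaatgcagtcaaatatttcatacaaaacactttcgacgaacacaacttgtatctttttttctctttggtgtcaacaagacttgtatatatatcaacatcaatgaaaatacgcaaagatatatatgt

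The CKX3 window held 1 match to AGATT and the CKX4 window 0. Across the family, CKX1 had 1 match, CKX2 had 3, CKX5 had 0, CKX6 had 2 and CKX7 had 3. The motif is common: 63.6% of the same 250-base windows before 24289 protein-coding genes held it, with a median of 1 match. The core GGNCCC, recognised by TCP transcription factors, was searched on both strands as well. It was in 0 of the 7 windows and in 7.58% of all windows. Of the members called lower, CKX3 and CKX1 held a match to AGATT and CKX5 held none, and CKX4, called higher, held none. With so few genes and so common a motif, nothing is read from these matches.

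Other genes of the cytokinin pathway were taken from a list of 67, of which 64 had reads in both pools. Of these, 24 were called higher and 17 lower in DEX, or 37.5% and 26.6%, against 36.4% and 20.8% of all genes, and the median log2 ratio was 0.09. At 1.5-fold or more, 5 of the 64 were called higher and 4 lower, beside 4.45% and 2.91% of all genes. Another route of inactivation runs through glucosyltransferases that attach glucose to cytokinins. Here the calls were lower for 4 of 5 genes and higher for 0, at a median log2 ratio of -0.30. Only 1 of the 5 was lower by 1.5-fold or more, and that gene had 27 reads in DEX and 69 in mock. UGT73C1 had 900 reads in DEX and 1439 in mock, at a log2 ratio of -0.46 ± 0.06.

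Genes of cytokinin synthesis, activation and transport are given beside the shares of all genes, 36.4% higher and 20.8% lower. Of 9 synthesis genes with reads in both pools, 3 were called higher and 1 lower, or 33.3% and 11.1%, and the share of higher calls was close to that of all genes. IPT3, an isopentenyltransferase that starts cytokinin synthesis, had 188 reads in DEX and 137 in mock, at a log2 ratio of 0.68 ± 0.16. IPT9, which acts on transfer RNA, was at -0.09 ± 0.04. Among the 8 LOG genes, whose enzymes release the active base from the nucleotide, 2 were called lower, or 25%, and 0 higher. LOG1 had 947 reads in DEX and 1879 in mock, at a log2 ratio of -0.77 ± 0.06, or 1.70-fold lower in DEX. Of 7 transport genes 3 were called higher and 3 lower, or 42.9% each, with PUP1, a purine permease, at 0.54 ± 0.03 and AT1G02630 at -0.79 ± 0.09.

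Signalling genes showed both directions, mostly at small ratios, and their counts are likewise to be read against 36.4% higher and 20.8% lower among all genes. All 3 receptor genes were between 0.02 and 0.12 on the log2 scale, and AHK2 was at 0.12 ± 0.03. Of 6 phosphotransfer genes, 5 were called higher and 0 lower, with AHP4 at 0.64 ± 0.17. AHP6, an inhibitor of the relay, had 35 reads in DEX and 54 in mock and was not called, at -0.40 ± 0.31. Of 10 type-B response regulators, 4 were called higher and 2 lower, or 40% and 20%, close to the shares of all genes. The 4 higher calls became 2 after the median ratio was set to 0, without the most abundant genes and at a posterior limit of 0.01. ARR10 was at 0.20 ± 0.04 and ARR2 at -0.10 ± 0.04. Of 10 type-A response regulators, which are themselves induced by cytokinin and dampen the response, 3 were called higher and 4 lower, with ARR4 at 0.40 ± 0.03 and ARR7 at -0.69 ± 0.06. Of 6 cytokinin response factors, 4 were called higher and 1 lower, with CRF3 at 0.61 ± 0.10 and CRF1 at -0.32 ± 0.12.

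**Figure D4:**
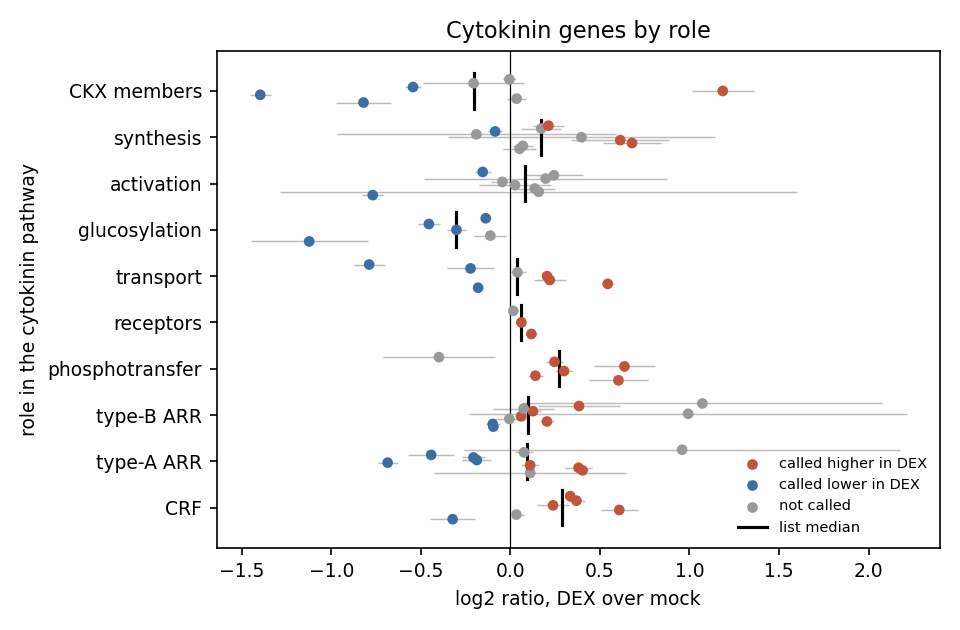
Log2 ratio of DEX over mock (horizontal axis) for the 7 CKX genes and 64 other cytokinin genes, by role (vertical axis); error bars are 1 counting standard error and black lines are list medians. The CKX genes span -1.40 to 1.19, and the median of the phosphotransfer genes is 0.27 against -0.30 for the glucosyltransferases.

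Markers of tissues within the bud also differed between the pools. Their counts are to be read beside 20.8% lower and 36.4% higher among all genes with reads in both pools. Among all genes with at least 200 reads these shares were 24.5% and 41.8%. Of 5 meristem genes, 4 had reads in both pools and all 4 of these were called lower, with log2 ratios from -0.61 for KNAT1 to -0.05 for CLV1. The summed level of the 5 was 71.7 RPKM in DEX and 90.4 RPKM in mock, and CLV3 was at 0 reads in DEX and 1 read in mock. The late pollen list had 3 of 4 genes called higher and 1 lower. Its summed level was 775 RPKM in DEX and 624 RPKM in mock. All 5 floral identity genes were called lower, with log2 ratios from -0.43 for SEP3 to -0.03 for PI. The part of these differences in the CKX ratios was not tested. The ratios of CKX3 and CKX1 lay below the lowest of the meristem and floral identity genes, and that of CKX5 lay within their range. The counting interval of CKX1 includes the ratio of KNAT1.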

How the data were processed

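The authors deposited 1 table of LOX output for 28775 genes, per the file headers. LOX uses Markov chain sampling of read counts to estimate how expression compares between treatments. The deposited level of a gene in DEX or mock is a ratio to whichever is lower, itself set to 1, and the posterior probability of each direction is a fraction between 0 and 1. Per the file headers, the deposited columns further include a log-likelihood score for each gene. TopHat 1.2.0, HTSeq 0.4.5p6 and TAIR10 are named, without roles, in the submitters' processing notes. Values are pooled over the 8 libraries by treatment, so the planned count models had no input.

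Reads per pool were recovered by taking the score as the sum over both pools of N ln(N/T) - N, with N the reads of a gene and T the total of the pool. The formula is not given in the sources used here, and all reads, RPKM and counting errors rest on it. Reads came out whole within 0.05 for 100% of 908 genes with reads in 1 pool. T of each pool was fitted to these same genes, with the score nearest 0 taken as 1 read. Their whole numbers are thus partly built in. For the 8294 genes with reads in both pools and up to 1000 reads, the sum of the pools was checked. It came out within 0.1 of whole reads for 99.98%. The split of that sum follows the deposited ratio and was not checked this way. For CKX4 it gave 202.31 reads in DEX and 103.65 in mock. For 8121 genes with over 200 reads and a posterior between 0.02 and 0.98, its normal score rose with the ratio divided by the counting error with a slope of 1.00, so replicate spread left no visible trace in the posterior. Intervals cover counting error only, since the reads were pooled by treatment, and they leave out the spread between replicates. They may be too narrow even for counting, since PCR copies are not independent molecules.

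Calls under other scalings used a normal approximation with the counting error. RPKM used the union of annotated exons. Gene models, positions and sequences came from RefSeq, TAIR10.1, in which 28009 listed loci matched, and promoters were the 250 bases before the outermost start. The nuclear coordinates are those of TAIR10.1 and were not compared with the annotation behind the table, which holds no coordinates. Coding sequences were aligned with MAFFT 7.526 and copies sought with blastn 2.17.0. Python 3.11.15 was used with pandas 2.3.3, NumPy 2.4.6, Matplotlib 3.10.9 and SciPy 1.17.1. The recovery was also run on simulated reads with counting error only. Their scores were made with the same formula, so that run could not test the formula itself. Members, lists and rules were chosen with earlier results of these data known. Named pathway genes were the called genes with the highest and lowest ratio per role among those with at least 200 reads, and AHP6, KNAT1, CLV1, CLV3, SEP3, PI and the neighbouring genes were named after their values were seen. Alternatives were another scaling, a stricter posterior, a fold limit, a minimum of 200 reads, 0.5 reads added to each pool, an exact binomial test of reads and transcript length.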

Additional observations from a re-analysis of the deposited data

How the results depend on the processing

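No paired analysis was possible because the table gives 1 value per treatment, and for that reason leaving out a replicate, a replicate block and the planned count models were not run. The calls of CKX1, CKX3 and CKX4 held with the median ratio set to 0 and with totals without the 1% most abundant genes. They also held at a posterior limit of 0.01, at 1.5-fold or more and in an exact binomial test of reads with Benjamini-Hochberg adjustment. The deposited posteriors and ratios of these genes already fixed the outcomes at both limits. The binomial test used the same pooled reads with counting error only, so it adds no replicate check. The minimum of 200 reads could not change these calls, since each of these genes had more reads. With 0.5 reads added to each pool only the ratios were recomputed, to -0.82 for CKX1, -1.40 for CKX3 and 1.18 for CKX4, and not the calls. CKX5, at -0.54, missed the fold limit by construction. CKX2 changed sign, to -0.0080, with the median ratio set to 0, and was called under neither setting. The family then counted 1 higher and 2 lower at 1.5-fold, and 1 and 3 otherwise. The fold limit left 1109 genes higher and 727 lower in the whole table, and 5 and 4 in the pathway list. By role, higher calls fell to 0 for transport, receptors, type-A and type-B regulators, 2 for phosphotransfer and 1 for CRF genes. Lower calls fell to 0 for synthesis, type-B and CRF genes and to 1 for activation, glucosylation, transport and type-A genes. Setting the median ratio to 0 left 1 receptor and 2 type-B regulators higher. Without the most abundant genes, and at a posterior limit of 0.01, 2 type-B regulators were higher, and at that limit 0 synthesis genes were lower. The share of higher calls among all calls was 63.7%, but 50.0% once the median ratio was 0. With the longest transcript as length, CKX3 stood at 11.8 RPKM in mock, and the other levels moved within counting error. The cause of these changes was not tested beyond what the settings themselves remove. Depth limited CKX6 most, with 108 reads over both pools.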

Other observations

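Of the 12 protein-coding neighbours of the CKX genes listed in the table, 6 were called lower, 3 higher and 3 not called, beside 20.8% lower and 36.4% higher among all genes. CKX3 lies between AT5G56960, at a log2 ratio of 0.66 ± 0.23, and AT5G56980, at -0.48 ± 0.04. Both neighbours of CKX6 were called lower, AT3G63430 at -0.30 ± 0.06 and AT3G63450 at -0.40 ± 0.04, while CKX6 itself was not called. AT2G19490, which overlaps CKX2 at one end, was at 0.35 ± 0.06, against 0.04 ± 0.05 for CKX2. These neighbours were looked up after the CKX values were known, and no test was made of them.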
